A study of Mus musculus with 4 samples.

Results

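The ADP-ribosyltransferase genes that respond to IFN, together with the E3 ligase partner of Parp9 and the zinc-finger antiviral protein ZAP, were read in mouse lung endothelial cells (ECs) with and without ADAR1. The 8 genes were Parp9, Dtx3l, Parp14, Parp10, Parp12, Parp11, Parp8 and Zc3hav1, chosen by name out of 24421 genes in the count tables, and all 8 were found there. They also held 1617 of the 1205261 positions in the table of RNA editing sites. The ECs came from 2 male C57/BL6 mice of separate litters, aged 2 weeks, of the inducible ADAR1 KO (i-KO) line. In these mice the floxed ADAR1 gene is cut by a Cre recombinase once tamoxifen activates it. The labels call the knockout EC-specific, and the promoter that drives this Cre is not given in the sources used here. The ECs were selected with CD31 and ICAM-2 antibodies and split into a culture treated with 4-OH-tamoxifen (TM) and a non-treated control (CON), which still carried the floxed gene and the Cre. The mice are named EC1 and EC2, and each gave a CON and a TM library, 4 in all with n = 2 in either group. Because only the TM cultures saw the drug, the effects of the drug and of the deletion cannot be told apart in these libraries.

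PARP proteins take ADP-ribose from NAD and place it on proteins or nucleic acids. Parp1 and the tankyrases build long chains, whereas most of the genes described here encode enzymes that add a single unit. PARP9 has little activity by itself and works as a pair with DTX3L, an E3 ubiquitin ligase of the Deltex family. PARP14 carries macrodomains that read ADP-ribose, PARP12 and ZAP (also called PARP13) carry CCCH zinc fingers that bind RNA, and ZAP has lost the catalytic activity. ZAP binds RNA rich in CpG and recruits factors that degrade it. Many of these genes are known IFN-stimulated genes (ISGs).

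Between 1095488 and 1778732 reads per library were counted on genes, which was 0.823% to 0.858% of all read pairs in each count table, and 92.8% to 93.9% were counted on no gene. The level of a gene was therefore also read as depth, the number of reads over the exonic and UTR positions that the site table lists for it. Depth was scaled to 100000000 read pairs in the count table, on and off genes, and it is a value per base, so that it can be compared between genes. The table holds a position for a library only if at least 1 altered read was called there, and the depth of all other positions is unknown. In bulk RNA, more transcript per cell and more cells that make the transcript cannot be told apart. Adar, the deleted gene, had a scaled depth in exons 12 to 14 of 109 in EC1 CON (3 sites) and 118 in EC2 CON (1 site), no listed site there in EC1 TM, and 31.6 in EC2 TM (2 sites). In exons 2 to 11 it was 115 and 122 in CON and 504 and 466 in TM. All 12 endothelial markers read here were listed in every library, with a median scaled depth of 1835 and 2232 in CON and 951 and 844 in TM. Their summed depth was 24724 and 31116 in CON and 21006 and 22970 in TM. The median log2 ratio of the 11 that could be tested at own sites was -0.49, with 5 called lower, as were 10.4% of the 6836 genes tested in this way. Of 12 leukocyte markers 1 to 4 were listed per library and of 11 epithelial markers 2 or 3, and their summed depth stayed between 20.9 and 54.6 in every library. Fibroblast and smooth muscle markers summed to a depth of 599 and 953 in CON and 206 and 323 in TM. In counts scaled to the size of the library (CPM) the same markers summed to 565 and 583 in CON and 586 and 497 in TM. The part of these shifts in the results was not tested.

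The scaled exonic depth of all 8 genes was higher in both TM libraries than in both CON libraries. The ratio of TM to CON ran from 3.29 to 14.7 in the first mouse and from 3.44 to 12.3 in the second. Of 9788 genes with an exonic site in every library, 25.9% had both TM libraries above both CON libraries, and the median ratio over all of them was 1.02 and 0.967. All 8 genes were at least 2 times higher in TM in both mice, as were 4.59% of the genes with depth, and 6 of the 8 were at least 5 times higher, as were 1.17% of all genes. Parp8 and Zc3hav1 were the members below that ratio in at least 1 mouse.

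**Figure D1:**
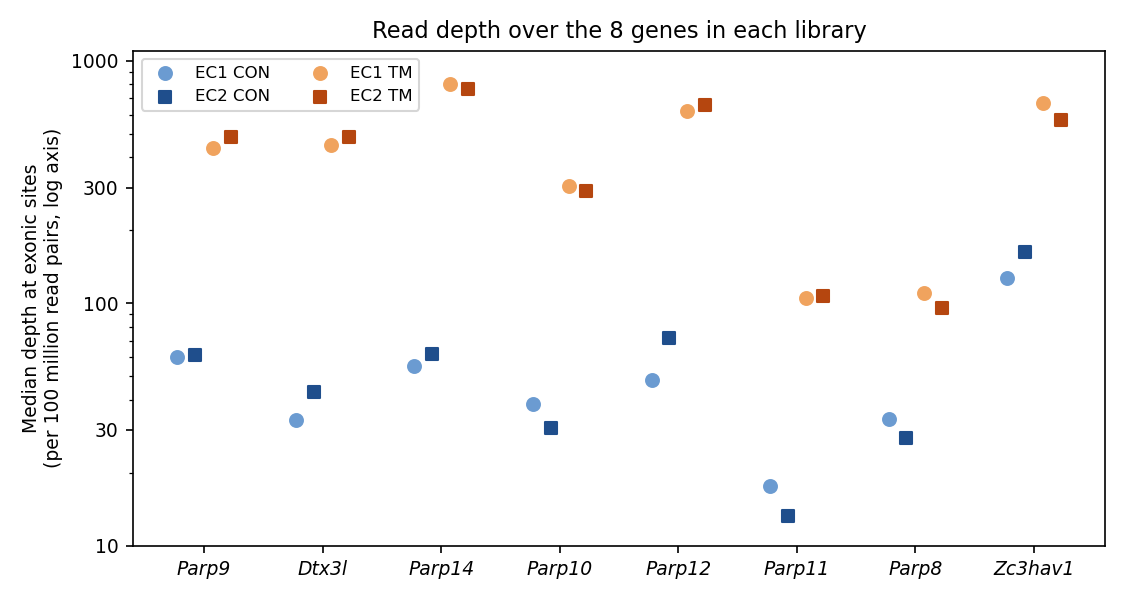
Median read depth at the exonic and UTR sites each library lists, per 100000000 read pairs in the count table (log axis), for the 8 genes. Each point is 1 library, circles for EC1 and squares for EC2. The TM points (orange) lie above both CON points (blue) for every gene, with the widest gap for Parp14 and the narrowest for Parp8 and Zc3hav1.

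In the planned comparison of depth, only sites that the CON and TM libraries of a mouse share were used, with at least 3 sites in each mouse, and limma tested the log2 ratios of the 2 mice. This left 1506 genes, of which 20.1% were higher in TM at an adjusted p of 0.05 or less and 20.1% lower. Of the 8 genes, Dtx3l and Parp14 had enough shared sites, and both were higher. The log2 ratio was 3.78 for Dtx3l (SE 0.13, adjusted p = 0.00252 by limma, n = 2 mice) and 3.73 for Parp14 (SE 0.09, adjusted p = 0.00165 by limma, n = 2 mice). When each library was read at its own sites, with at least 3 in each library, 6836 genes could be tested, 6.85% were higher and 10.4% lower. Of the 8 genes, 6 could be tested in this way and all 6 were higher. With at least 1 site in each library, a limit chosen after seeing the data, 7 of the 8 genes were higher, against 3.29% of 9788 genes that were higher and 3.32% that were lower, and Parp8 did not (adjusted p = 0.0532 by limma). Where the other members had a shared site, it went the same way. Parp9 had 3 such sites in EC1, with ratios of 6.66 to 8.34, and 1 in EC2 with 6.39. Parp10 and Parp12 each had 1 in EC1, that of Parp10 with a ratio of 11.3, and Parp11 had 1 with 7.98 in EC2. Zc3hav1 had 1 in EC1 with 4.58 and 2 in EC2 with 3.22 and 3.59, again the lowest ratios of the set, and Parp8 had none.

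Parp9, Dtx3l and Parp14 lie side by side on chromosome 16, in a stretch of 139.7 kb. In mm10, Parp14 spans chr16:35832874-35871544 and Dtx3l chr16:35926511-35939151, both on the minus strand, and Parp9 spans chr16:35938470-35972605 on the plus strand. The first exons of Parp9 and Dtx3l share 458 bases on opposite strands, at chr16:35938694-35939151.

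Parp14, the macrodomain enzyme, had a scaled depth of 54.9 in EC1 CON (19 sites) and 62.0 in EC2 CON (21 sites), against 805 in EC1 TM (148 sites) and 765 in EC2 TM (181 sites). It was thus 14.7 and 12.3 times higher, the largest ratios of the 8 genes in both mice at the own sites of each library. At shared sites the order was the other way, with log2 ratios of 3.73 for Parp14 and 3.78 for Dtx3l that differed by less than the SE of Dtx3l. Its longest stretch of exon sequence, of 4184 bases, had 46.6 and 61.3 in CON and 729 and 707 in TM, close to the whole gene.

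Dtx3l, the E3 ligase, rose from 33.1 (22 sites) to 449 (102 sites) in EC1 and from 43.2 (19 sites) to 483 (120 sites) in EC2. At the 16 sites that EC1 CON and EC1 TM both list, the ratio lay between 11.4 and 19.5, and at the 12 such sites of EC2 it was 10.2 or more, so that no shared site went the other way. Parp9 had a depth of 59.7 (8 sites) and 61.0 (4 sites) in CON and 438 (43 sites) and 487 (50 sites) in TM. The ratio of TM to CON was 7.33 and 7.99 for Parp9, lower than for its partner Dtx3l in both mice. The log2 ratio at own sites was 2.86 for Parp9 (SE 0.17, adjusted p = 0.00222 by limma) and 3.55 for Dtx3l (SE 0.14, adjusted p = 0.00103 by limma), and the difference between them was not tested. In TM the levels per base of the partners were alike, with ranges over the mice of 438 to 487 for Parp9 and 449 to 483 for Dtx3l that overlap.

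Gene counts gave another picture of the pair. Parp9 had 164 counts in CON and 2453 in TM in the first mouse and 259 and 3630 in the second. In CPM, the count scaled to the size of the library, Dtx3l went from 87.8 to 487 in EC1 and from 118 to 520 in EC2, and Parp9 from 143 to 2171 and from 232 to 2019. The ratio of Parp9 to Dtx3l counts was 1.62 and 1.96 in CON and 4.46 and 3.88 in TM. Over the 458 shared bases, where all listed sites belong to Dtx3l, the median depth was 49 (1 site) and 66 (1 site) reads in CON and 1014 (4 sites) and 1272 (5 sites) in TM. At the length of a read pair, and if every pair lay wholly within the shared bases, this depth stands for 111 and 149.6 pairs in CON and 2299 and 2884 in TM. Pairs that lie partly outside would raise these numbers and lower the percentages that follow. The whole Parp9 count was 148% and 173% of that number in CON and 107% and 126% in TM, while the first exonic stretch of Parp9, of 737 bases, had no site of its own listed. How many reads of the shared bases belong to each gene cannot be told apart from a depth that takes both strands together.

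Of 19 other annotated genes within 200 kb of these genes, 9 were in the count tables and 4 could be tested. Hspbap1, which ends on the plus strand just beyond the 3′ end of Parp14, was the only neighbour called. Its counts went from 15 to 323 in EC1 and from 19 to 280 in EC2 (log2 change 3.87, SE 0.39, adjusted p = 2.96e-08 by edgeR). Its scaled exonic depth was 48.1 and 46.3 in CON and 57.7 and 72.4 in TM, a log2 ratio of 0.38 at the limit of 1 site that did not pass (adjusted p = 0.304 by limma). It shares 430 exonic bases with Gm26838 on the opposite strand. Dirc2 had -0.61 (adjusted p = 0.705 by edgeR), Fam162a -0.70 (adjusted p = 0.553) and Ccdc58 0.40 (adjusted p = 0.584) on the log2 scale of counts. On the other flank Kpna1 had a scaled depth of 93.2 and 130 in CON and 115 and 126 in TM. With at least 3 sites per library its log2 ratio was 0.06 (adjusted p = 0.807 by limma), and that of Dirc2, beyond Hspbap1, was -0.64 (adjusted p = 0.0465 by limma, but 0.0932 at the limit of 1 site). Neither of these 2 neighbours was called higher in depth.

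**Figure D2:**
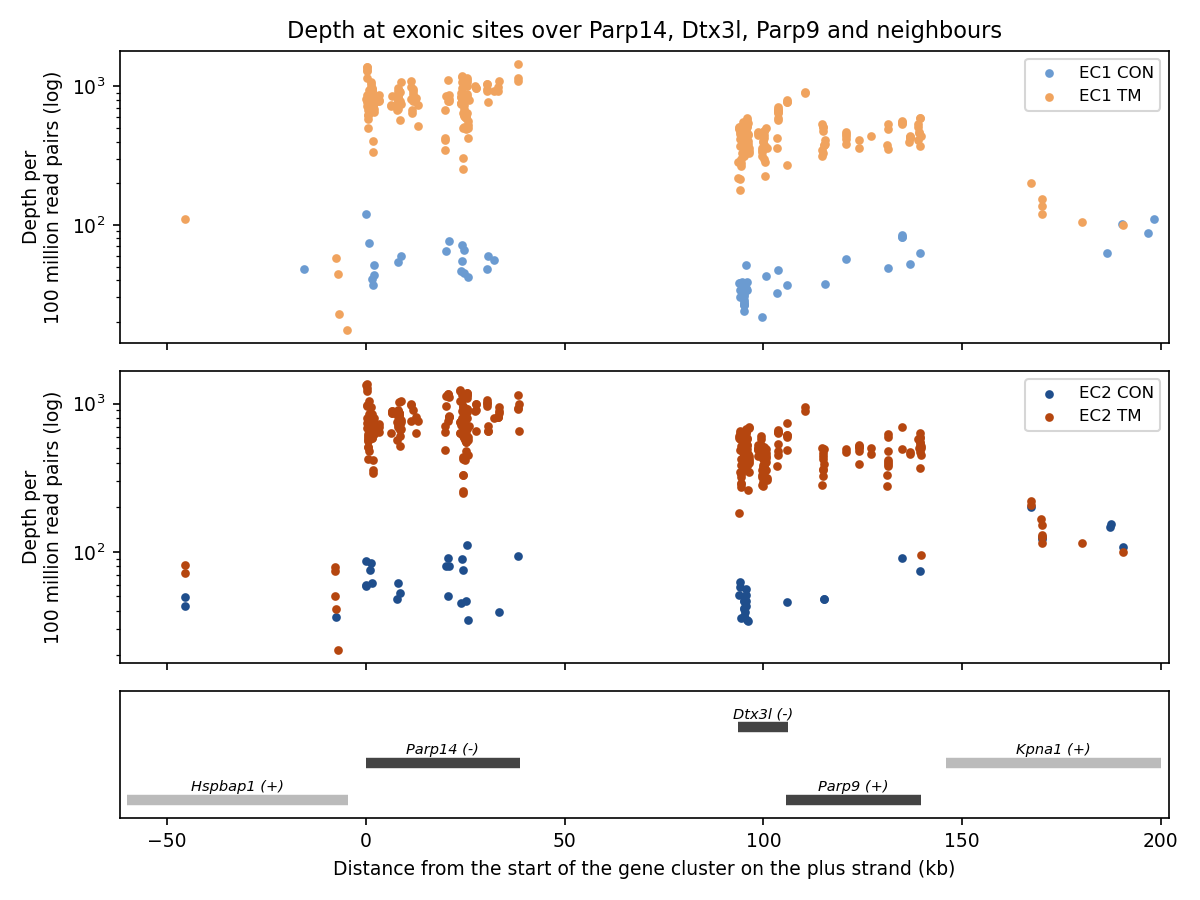
Depth at every listed exonic and UTR site of Parp14, Dtx3l, Parp9 and their neighbours Hspbap1 and Kpna1 (log axis), against the distance in kb from the left end of Parp14. The upper panels show EC1 and EC2, blue for CON and orange for TM, and the lowest panel shows the genes with their strands. The TM points lie above the CON points over the 3 genes, while the CON and TM points of Kpna1 overlap.

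Parp12 and Zc3hav1 encode the CCCH zinc-finger members. Parp12 (chr6:39086410-39118349, minus strand) had a scaled depth of 48.1 (3 sites) and 71.8 (3 sites) in CON and 623 (52 sites) and 655 (47 sites) in TM, 13.0 and 9.12 times higher. Its log2 ratio at own sites was 3.37 (SE 0.16, adjusted p = 0.00126 by limma, n = 2). Only 3 sites per CON library stand behind that ratio. A stretch of 895 bases near its end, exonic in at least 1 transcript of GENCODE vM21, had a depth of 51.2 (2 sites) and 36.2 (7 sites) in TM, while its neighbours on both sides had 383 to 826, and it was the lowest stretch with sites in both TM libraries.

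Zc3hav1 (chr6:38305286-38354603, minus strand) encodes ZAP and was the most abundant of the 8 genes in CON. Its scaled depth was 127 (12 sites) and 163 (18 sites) in CON and 667 (52 sites) and 570 (51 sites) in TM, 5.25 and 3.50 times higher. The log2 ratio at own sites was 2.02 (SE 0.19, adjusted p = 0.00665 by limma).

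ZAP is made in a long form, whose last exons encode the PARP-like domain, and in a short form that ends earlier. In GENCODE vM21 the short transcripts end in an extension of 653 bases at chr6:38315668-38316320, which the long transcripts splice out. No site of that extension was listed in either CON library. In EC1 TM it had 3 sites with a scaled depth of 50.8 to 164 (median 124), and in EC2 TM 4 sites with 38.1 to 199 (median 145). Exons 10 to 12 of the long transcript had 141 (1 site) and 177 (3 sites) in CON and 507 (3 sites) and 493 (10 sites) in TM. The exons that both forms share, from exon 5 onward, had 127 (4 sites) and 163 (3 sites) in CON and 698 (12 sites) and 730 (6 sites) in TM. The long end was therefore 1.10 and 1.09 times the shared exons in CON and 0.726 and 0.676 times in TM, lower in both mice. Expressed as TM over CON, the long end rose 3.61 and 2.79 times and the shared exons 5.48 and 4.47 times. These ratios rest on 1 to 4 sites per CON library and were not tested.

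**Figure D3:**
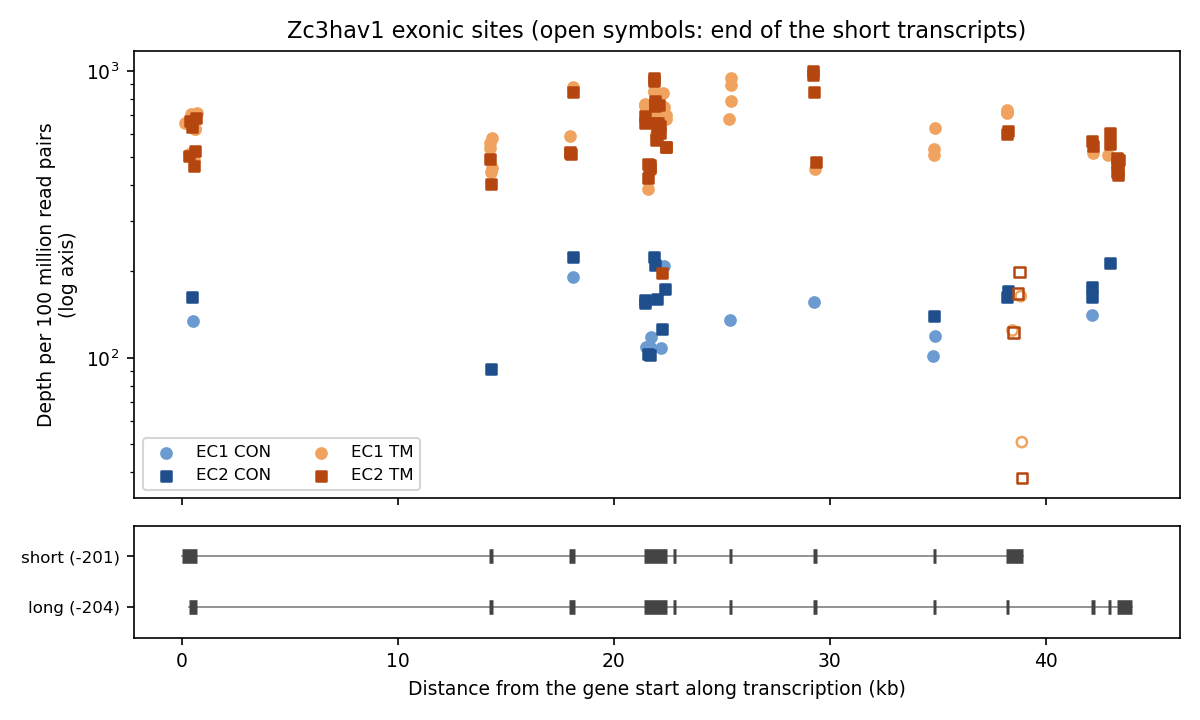
Scaled depth at listed exonic sites of Zc3hav1 (log axis) against the distance in kb from the gene start along transcription, with circles for EC1, squares for EC2, blue for CON and orange for TM. Open symbols mark the extension found only in short transcripts, which had sites in the TM libraries alone (38.1 to 199), and the lower panel shows the exons of a long and a short transcript.

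Parp10, Parp11 and Parp8 encode further enzymes that transfer a single ADP-ribose. Parp10 (chr15:76231174-76243441, minus strand) had a scaled depth of 38.3 (5 sites) and 30.7 (2 sites) in CON and 306 (31 sites) and 289 (28 sites) in TM. This was 7.98 and 9.43 times higher, with a log2 ratio of 3.04 at the limit of 1 site (SE 0.29, adjusted p = 0.0219 by limma). Its last 205 annotated bases are shared with Plec on the same strand, and no site of Parp10 was listed there.

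Parp11, a WWE-domain enzyme (chr6:127446840-127494261, plus strand), was the least abundant of the 8 in CON. Its scaled depth was 17.7 (2 sites) and 13.2 (4 sites) in CON and 105 (11 sites) and 108 (23 sites) in TM, 5.97 and 8.13 times higher. The log2 ratio at the limit of 1 site was 2.72 (SE 0.31, adjusted p = 0.0283 by limma). Parp11 had a promoter in RefSeq (GRCm38.p6) with letters that match the core of the IFN-stimulated response element, found at many ISGs. The match, in capitals, starts 44 bases before the gene start within chr6:127446786-127446815, and is shown on the gene's strand because this is the only member promoter found to hold it.
Parp11 promoter: ttccttttagTTTCGATTTCttggaacccg
The letters searched were GAAA, any 2 bases and GAAA again, on either strand, in windows of 250 bases before to 50 after each gene start. Of 32851 promoters, 3.44% hold them, and of the 6 promoters found for Dtx3l, Parp12, Parp8, Zc3hav1 and Parp11 (2 starts) 1 does. A second pattern, called GAS (TTCNNNGAA, with N any base), was also searched. It is held by 8.3% of promoters and, among those 6, by the same Parp11 promoter alone. Parp9, Parp14 and Parp10 had no promoter in this table.

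Parp8 (chr13:116854820-117025537, minus strand) changed the least of the 8. The depth was 33.4 (6 sites) and 27.9 (3 sites) in CON and 110 (7 sites) and 96.0 (11 sites) in TM, 3.29 and 3.44 times higher. Its log2 ratio of 1.68 passed with at least 3 sites per library (SE 0.26, adjusted p = 0.0198 by limma) and did not pass under the limit of 1 site named above. At shared sites of all gene regions, introns included, Parp8 had 0.96 (SE 0.16, adjusted p = 0.063 by limma).

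Ordered by mean level in TM, Parp14 (785) came first, followed by Parp12 (639) and Zc3hav1 (618), whose ranges over the mice overlap, then Dtx3l (466) and Parp9 (462), which also overlap, then Parp10 (297), Parp11 (107) and Parp8 (103), the last pair overlapping. In CON the order was Zc3hav1 (145), then Parp9, Parp12 and Parp14 at 58.4 to 60.4, which were not separable over the mice, then Dtx3l (38.1), Parp10 (34.5) and Parp8 (30.7), each overlapping the next, and Parp11 (15.4). Zc3hav1 thus stood apart from the other genes in CON and not in TM.

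Intronic sites, which are read mostly from unspliced transcripts, had low depth and rose as well. The scaled intronic depth of Zc3hav1 was 4.13 and 3.83 in CON and 22.0 and 17.4 in TM, 5.32 and 4.53 times higher, near the exonic ratio of 5.25 and 3.50. For Parp9 the intronic ratio was 6.44 and 4.15, under the exonic ratio of 7.33 and 7.99. For Parp12 it was 3.25 and 6.58, under the exonic ratio of 13.0 and 9.12. Parp11 went from 3.01 to 15.6 and from 2.09 to 6.27. Parp8, with 61 to 98 intronic sites per library, had the smallest ratio, at 1.77 and 1.73. Parp14 and Parp10 had intronic sites in EC1 CON, with ratios of 10.5 and 11.1 in EC1, but none in EC2 CON. Dtx3l had none in either CON library, and no ratio is given where CON had no intronic site.

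Gene counts were tested as well. They held a small share of the reads over each gene, and for some of the 8 genes this share differed between CON and TM, as given below. A change in counts is therefore not the same quantity as a change in depth. By edgeR's quasi-likelihood test on 7899 genes, 347 (4.39%) were higher in TM and 265 (3.35%) lower, and with the mouse as a block 600 and 584. Of the 8 genes, 6 were kept by the filter on low counts and 5 were called higher, with or without the block. The same 5 had both TM libraries above both CON libraries in CPM, as did 25.3% of the genes tested. Parp9 rose by a log2 fold change of 3.49 (SE 0.33, adjusted p = 6.07e-09 by edgeR) and Dtx3l by 2.29 (SE 0.30, adjusted p = 2.99e-06 by edgeR). Parp14 went from 44 to 159 counts in EC1 and from 34 to 220 in EC2, with 1.93 on the log2 scale (SE 0.34, adjusted p = 1.73e-04 by edgeR). The Parp14 groups did not overlap, although the counts are low for the gene of the set with the highest depth in TM.

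Parp12 went from 15 to 62 and from 8 to 93 counts (log2 fold change 2.38, SE 0.44, adjusted p = 3.52e-04 by edgeR). Zc3hav1 had 11 and 16 against 64 and 113 (2.32, SE 0.42, adjusted p = 2.60e-04 by edgeR). Both zinc-finger genes were higher in each TM library than in either CON library.

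Parp10 was the exception. Its counts were 29 and 23 in CON and 21 and 39 in TM. In CPM these were 25.2 and 20.6 against 18.6 and 21.7, and the groups overlapped. The log2 fold change was -0.17 (SE 0.43, adjusted p = 0.886 by edgeR) while the depth of the same gene rose 7.98 and 9.43 times. Parp11 went from 0 to 2 counts in EC1 and from 4 to 13 in EC2, where a count of 0 in EC1 CON allows up to 2.74 CPM. Parp8 went from 4 to 21 and from 7 to 11. Neither passed the filter, and without it neither was called (adjusted p = 0.747 for Parp11 and 0.454 for Parp8 by edgeR).

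The counts held a small and uneven share of the reads over each gene. Where no other gene has an exon opposite, the median gene had 0.215% to 0.306% of its implied read pairs counted, and with such an exon 0.492% to 0.671%. For Parp9 it was 8.55% and 12.3% in CON and 17.6% and 14.9% in TM, and for Dtx3l 8.10% and 7.51% in CON and 3.28% and 3.30% in TM. Parp10 fell from 2.69% and 2.47% in CON to 0.246% and 0.307% in TM, and Parp14 from 1.31% and 0.829% to 0.325% and 0.301%. Zc3hav1 stayed at 0.202% to 0.296%. A count fold and a depth fold of the same gene are therefore different quantities here. The strand of the counted reads was not tested.

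**Figure D4:**
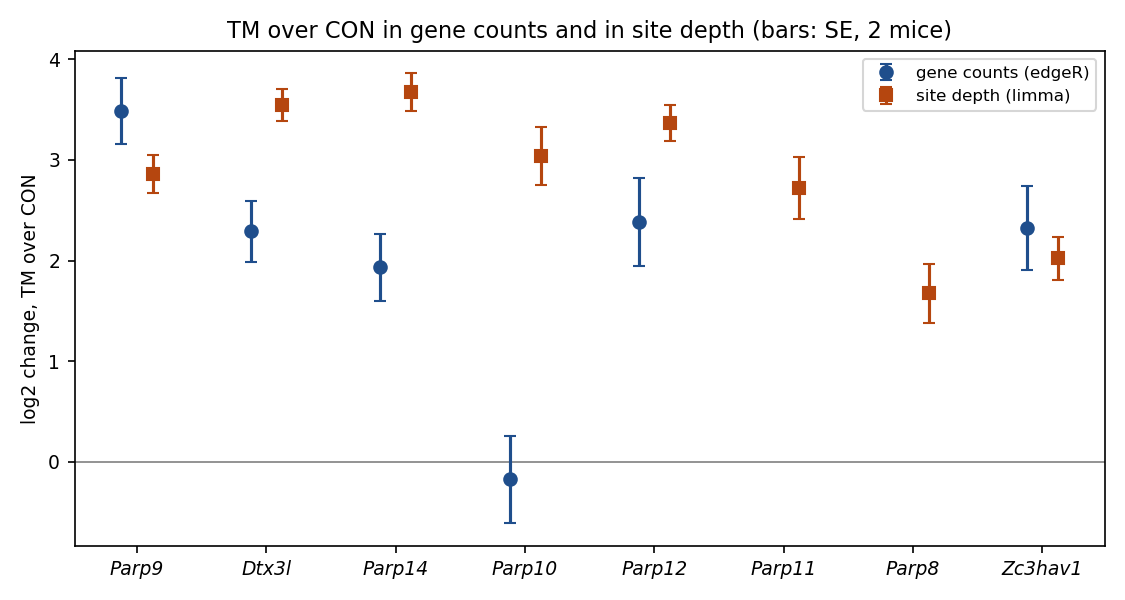
log2 change of TM over CON for the 8 genes, from gene counts (blue circles, edgeR) and from depth at the own sites of each library with at least 1 site (orange squares, limma). Bars are standard errors with 2 mice per group. All 8 depth values lie above 0, of which that of Parp8 did not pass at this limit, while the count value of Parp10 was -0.17. Parp11 and Parp8 have no count point because they did not pass the filter on low counts.

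RNA editing of these genes was read next, since ADAR1 converts A to I, which is sequenced as G. The table, which the authors limited to A-to-G on the strand of the gene, listed 206 and 179 sites of the 8 genes in CON and 756 and 854 in TM. A site passed in a library where 5 or more reads covered it, 3 or more of them were altered and the rate lay between 0.05 and 0.95. In this way 2 of 11979 passing sites in EC1 CON, 12 of 9492 in EC1 TM, 5 of 10641 in EC2 CON and 27 of 12232 in EC2 TM lay in the 8 genes. Together these were 38 different sites, of which 32 were intronic and 17 lay in SINEs. Parp11 held 18, Parp9 7, Parp12 5, Dtx3l and Zc3hav1 3 each, Parp14 and Parp8 1 each, and Parp10 none.

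Dtx3l was the only member with passing sites in SINEs of its 3′ UTR, and its 3 sites passed in CON libraries and in neither TM library. SINEs such as B1 are repeats whose inverted copies fold into double-stranded RNA, the substrate of ADAR1. The windows around the 3 sites are shown on the strand of the gene, from the last of the 5 exons of transcript Dtx3l-201 (mm10, minus strand), with the altered A in capitals, because the editing result of this gene rests on them. The B1_Mur2 site lies at chr16:35928775-35928803, the B1_Mus2 site at chr16:35928032-35928060 and the ID_B1 site at chr16:35926902-35926930.
B1_Mur2: ggacagccagctatAcatagtgagacctt
B1_Mus2: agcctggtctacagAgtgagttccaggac
ID_B1: actggcctctccctAtgtagccaaggcta
At the ID_B1 site 8 of 40 reads were altered in EC1 CON, a rate of 0.20 (95% Wilson interval 0.105 to 0.348), and 19 of 548 in EC1 TM, a rate of 0.0347 (0.0223 to 0.0535). In EC2 CON 7 of 90 were altered (0.0778, interval 0.0382 to 0.152). EC2 TM does not list the site, so that it could not be tested in the second mouse. The intervals of the first mouse do not overlap, and the difference there had p = 1.93e-04 by Fisher's exact test, two-sided, and 0.0689 after adjustment over all 28574 sites tested in that mouse.

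At the B1_Mur2 site 6 of 52 reads were altered in EC1 CON (0.115, interval 0.0540 to 0.230) and 6 of 681 in EC1 TM (0.00881, 0.00404 to 0.0191). In EC2 these were 2 of 50 (0.04, 0.0110 to 0.135) and 15 of 1084 (0.0138, 0.00840 to 0.0227). The change passed in the first mouse (adjusted p = 0.0294 by Fisher's exact test, two-sided) and not in the second (p = 0.170 before adjustment by the same exact test), although both pointed the same way. The B1_Mus2 site had 1 of 37 and 19 of 653 altered reads in EC1 and 3 of 52 and 23 of 1045 in EC2. Its rates of 0.0270 and 0.0291 in EC1 and 0.0577 and 0.0220 in EC2 were not separable (p = 1.0 and 0.121 by Fisher's exact test, two-sided). At none of the 3 sites did TM have fewer altered reads than CON where both libraries list it, while the reads per site went from 37 to 90 in CON to 548 to 1084 in TM.

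Over the 8 genes, 1 of 40 sites in the first mouse and 0 of 19 in the second passed Fisher's exact test with Benjamini-Hochberg adjustment as lower in TM, where 0.22% and 0.692% of all sites tested did. At an unadjusted p of 0.05 or less by the same test, 3 and 0 member sites were lower in TM, as were 1.99% and 3.54% of all sites. No member site was called higher in TM, where 0.014% and 0.0145% of all sites were. No tested site was therefore called in both mice, and a complete loss of editing lies outside what this test can show. These tests compare the reads of 2 libraries, and reads were not marked by molecule, so that the intervals cover counting error only.

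**Figure D5:**
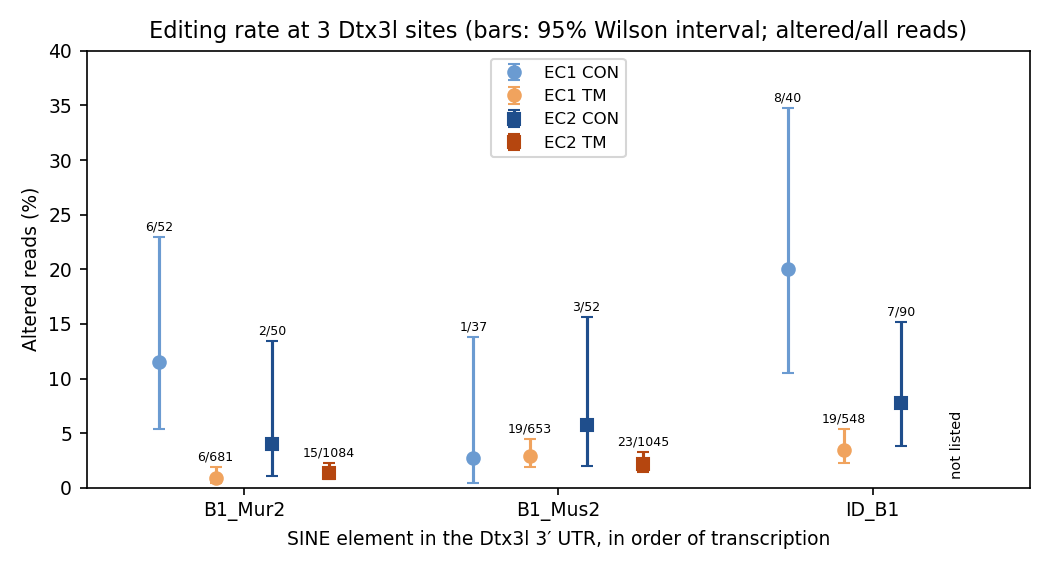
Share of altered reads (%) at 3 sites in SINEs of the Dtx3l 3′ UTR in each library, with 95% Wilson intervals and the altered over all reads printed above. The CON libraries have 37 to 90 reads per site and the TM libraries 548 to 1084. The TM points lie at or under 0.0347 as a fraction, and the interval of EC1 TM lies below that of EC1 CON at B1_Mur2 and ID_B1.

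Passing sites of Parp9, Parp12 and Parp14 were intronic, and none of them passed in CON, while of the 3 intronic sites of Zc3hav1 1 passed in EC2 CON and 1 in each TM library. In Parp12, 2 positions of a B2_Mm2 element passed in both TM libraries, with 5 of 39 and 7 of 40 altered reads at chr6:39107937 and 3 of 38 and 5 of 40 at chr6:39107961, and CON lists neither. In Parp9, a B3 site at chr16:35952854 passed in both TM libraries with 3 of 16 and 3 of 39 altered reads, against 2 of 4 in EC2 CON. A B1_Mus2 site at chr16:35959193 had 7 of 50 and 4 of 28 in TM and 1 of 7 in EC1 CON. These introns had too few CON reads for a comparison, since intronic depth was 3.01 and 3.48 for Parp9 and 8.64 and 2.79 for Parp12 in CON. In Parp8 an intronic site at chr13:117002664 had 5 of 5 and 1 of 1 altered reads in CON and 5 of 6 and 6 of 7 in TM, almost all reads in every library.

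The 18 Parp11 sites differed from those of the other genes in that they followed the mouse and not the treatment. All 18 were listed in EC2 and none in EC1. Of 19 Parp11 sites in EC2 TM with at least 5 reads and at least 3 altered, 15 had a rate of 0.3 to 0.7, with a median of 0.556, and neither EC1 library had such a site. The 3′ UTR site at chr6:127491938 had 6 of 17 altered reads in EC2 CON (0.353, 95% Wilson interval 0.173 to 0.587) and 91 of 196 in EC2 TM (0.464, 0.396 to 0.534). Those intervals overlap, and 17 of the 18 sites lie outside SINEs. Other genes within 200 kb, Cracr2a and Gm38404, had 11 sites with as many reads in EC2 CON and 8 in EC2 TM and none in EC1. Their median rates were 0.833 and 1.0, with 5 and 3 sites at 0.3 to 0.7, against a median of 0.556 for Parp11 in EC2 TM. Whether these are edited positions or inherited differences of the second mouse was not tested.

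The genes that work with these proteins were read as lists. Over all genes tested, 4.39% were higher and 3.35% lower in counts. In depth at own sites, with at least 3 per library, 6.85% were higher and 10.4% lower. Among 9 other PARP genes 7 could be tested in counts, with a median log2 fold change of 0.42, and 1 was higher. This was the tankyrase Tnks, which went from 10 to 26 counts in EC1 and from 11 to 55 in EC2 (1.54, SE 0.49, adjusted p = 0.0486 by edgeR, but 0.407 by DESeq2). Its exons share 635 bases with Gm9939 on the opposite strand, and its scaled depth of 126 and 151 in CON and 137 and 196 in TM did not pass (log2 ratio 0.17, adjusted p = 0.517 by limma). In depth at own sites 7 could be tested and 2 were higher. Parp3, a DNA repair enzyme, had 113 and 139 in CON and 292 and 345 in TM (1.27, SE 0.14, adjusted p = 0.00927 by limma). Tiparp, a target of the aryl hydrocarbon receptor, had 56.4 and 63.4 against 112 and 127 (0.92, SE 0.15, adjusted p = 0.0210 by limma), which did not pass at the limit of 1 site (adjusted p = 0.0539 by limma). Both ratios were smaller than those of the 8 genes above, and that difference was not tested.

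Of 13 partners of ZAP in RNA decay and sensing, 7 were tested in counts with a median of 0.56, and N4bp1 was higher (1.78, SE 0.40, adjusted p = 0.00353 by edgeR). N4bp1, a relative of the ZAP cofactor KHNYN with an RNase domain, went from 28 to 77 counts in EC1 and from 13 to 102 in EC2. In depth 8 could be tested and 3 were higher, with a median of 0.52 over the list against -0.06 over all genes. Trim25, an E3 ligase that ZAP needs, rose from 154 and 204 to 528 and 451 (1.38, SE 0.20, adjusted p = 0.0157 by limma). The decapping enzyme gene Dcp2 rose from 35.3 and 49.5 to 143 and 134 (1.65, SE 0.17, adjusted p = 0.00811 by limma), and N4bp1 from 113 and 144 to 293 and 340 (1.23, SE 0.14, adjusted p = 0.00991 by limma). Dcp2 counts were 65 and 54 in CON and 41 and 43 in TM, which did not pass (log2 fold change -0.82, adjusted p = 0.205 by edgeR), so that the higher depth was not matched by higher counts.

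Enzymes that remove ADP-ribose gave no call, with 4 of 8 tested in counts (median -0.37) and 2 in depth. Macrod1 had -0.38 (adjusted p = 0.544 by edgeR) and Adprh -0.51 (adjusted p = 0.733 by edgeR), the members furthest from 0. Of 4 other Deltex genes none could be tested in counts, and Dtx3, the single gene tested in depth, had 113 and 110 in CON and 110 and 117 in TM (log2 ratio -0.05, adjusted p = 0.879 by limma). Among 13 genes of NAD supply and use, 4 were tested in counts (median -0.31) and the NAD hydrolase gene Cd38 was lower, going from 36 to 9 counts in EC1 and from 33 to 23 in EC2 (SE 0.46 on the log2 scale, adjusted p = 0.0400 by edgeR, but 0.339 by DESeq2). Its depth was 159 and 245 in CON and 136 and 107 in TM (-0.79, adjusted p = 0.0866 by limma). Nampt, which encodes the rate-limiting enzyme of NAD salvage, had 94.7 and 81.2 in CON and 385 and 472 in TM and was the single higher gene of 3 tested in depth (2.21, SE 0.22, adjusted p = 0.00746 by limma).

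Among 5 factors that carry the IFN signal, all could be tested in counts (median 2.44, against 0.00 over all genes) and 3 were higher. Stat2 went from 9 to 98 and from 9 to 164 counts, Irf1 had 9 and 6 against 41 and 65, and Irf9 had 1 and 2 against 22 and 28 (adjusted p = 6.66e-07, 9.49e-04 and 0.00199 by edgeR). By DESeq2 Irf9 did not pass (adjusted p = 0.0625). Irf1 shares 135 exonic bases with Gm17334 on the opposite strand. In depth Stat2 had 73.6 and 81.5 in CON and 712 and 693 in TM (3.11, SE 0.17, adjusted p = 0.00165 by limma). Irf9 had 78.1 and 120 against 286 and 347 (1.63, SE 0.17, adjusted p = 0.00769 by limma). Both were higher in each TM library than in either CON library.

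The 3 genes whose counts followed each clustered gene most closely were found by the distance between centred log2 CPM over the 4 libraries. For Dtx3l they were Zc3hav1 (distance 0.111), A230050P20Rik (0.132) and Slfn5 (0.165). For Parp14 they were Trim12c (0.0961), Sytl1 (0.140) and Iqgap2 (0.262), and for Parp9 A930015D03Rik (0.357), 3110062M04Rik (0.446) and Ly6e (0.460). Zc3hav1 was thus the gene nearest to Dtx3l out of all genes kept by the filter. Over only 4 libraries many genes that differ between the groups lie close together. A930015D03Rik shares 1003 exonic bases with H2-T22 on the opposite strand, A230050P20Rik 265 with Angptl6 and Slfn5 559 with Slfn5os, so that their counts cannot be told apart from reads of those genes. The same limit holds for Parp9 and Dtx3l, whose exons share 458 bases on opposite strands. For 3110062M04Rik no exon was found under that name in GENCODE vM21, so that its overlap was not checked.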

How the data were processed

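RNA of TM-treated and CON ECs of 2 i-KO mice was depleted of ribosomal RNA (KAPA RNA HyperPrep with RiboErase) and sequenced in pairs. The authors deposited raw counts made with HTSeq 0.11.2 after trimming (Trimmomatic 0.38) and alignment by STAR 2.6.1a to mm10, with versions from the submitters' processing notes. Rows that name no gene did not enter tests or library sizes. Variants were called by the authors with BCFtools, limited to A-to-G on the strand of the gene, and deposited as counts of reference and altered reads with the editing rate as a fraction. The total of all rows of a count table, reads off genes included, gave the scale of its depth, and 0 sample columns were left unused.

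Counts were tested with edgeR 4.0.16 (filterByExpr, TMM, quasi-likelihood, condition only) with Benjamini-Hochberg adjustment at 0.05, and with DESeq2 1.42.0 as an alternative. Depth was tested with limma 3.58.1, centred on the median gene of each mouse at shared sites and of each library at own sites. Editing sites were tested with Fisher's exact test (scipy 1.17.1). Scripts were tested on simulated data. Both cultures of a number came from the same mouse, and their deviations from the group means correlated with r = 0.163 over 7899 genes. P-values of edgeR, and of limma at own sites, measure the spread between the 2 libraries of a group, with the pairing by mouse not used. Those of limma at shared sites measure the spread between the ratios of the 2 mice. P-values of Fisher's exact test hold counting error within 1 mouse only. Exons were read from GENCODE vM21. The annotation the authors counted with is not given in the sources used here. Named genes were the 8 genes, Adar, genes of the lists that passed (or the 2 furthest from 0), neighbours within 200 kb, opposite-strand genes, and the 3 nearest in count pattern. Sites were named when they passed in at least 3 libraries or in both of a group, or were called. The Dtx3l B1_Mus2 site, the Parp11 3′ UTR site, Cracr2a, Gm38404, Plec and the genes of no call beside a result were named after their values were seen. The genes and lists were chosen with earlier results of these data known. Results on 1 further gene of the lists are not reported here.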

Additional observations from a re-analysis of the deposited data

How the results depend on the processing

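In counts, the 5 called members were called under relative log expression scaling, DESeq2, no filter and each library left out (5 to 5), and the mouse as a replicate block also called 5 in edgeR and 5 in DESeq2. At least 10 counts in every library left 4, because Parp12 was not tested. All 63 alternative values of the members' log2 fold changes in counts kept direction and side of the threshold. Of 24 alternative values in depth, both that moved across the threshold were of Parp8. The 24 include 2 values from 1 mouse alone for each of Dtx3l and Parp14. These have no adjusted p and were compared by their distance from the value of both mice, against the spread of the 2 mice. Because the value of both mice is their mean, they could not fail this rule. Parp11 had no alternative value in counts or depth, and Parp10 had none in depth. All genes called numbered 612, but 362 by DESeq2, 1184 with the replicate block in edgeR, 401 with the block in DESeq2, and 436 to 574 with a library left out. List genes called numbered 6, but 3 by DESeq2, 11 with the block in edgeR, 3 with at least 10 counts in every library, and 3 to 5 with a library left out, the 3 without EC2 CON. Members called in depth numbered 2, but 4 with at least 1 shared site, 6 at own sites, and 7 at own sites with at least 1 site, added after seeing the data. With at least 1 shared site 4 members were tested, and the share called over all genes was not counted at that limit. Each mouse alone gave a log2 ratio of 3.61 to 3.96 for Dtx3l and 3.71 to 3.76 for Parp14. Member sites called in editing numbered 1, but 2 at a depth of 10 or of 20 and 3 without adjustment. Of all sites, 0.47% and 1.27% were called lower in TM in the first and second mouse at a depth of 10. At a depth of 20 these were 0.924% and 2.2%, and without adjustment 1.99% and 3.54%. Passing member sites summed to 46 over the libraries, but 23 at a depth of 20, 30 with 5 altered reads, and 22 when listed in both libraries of a mouse. The cause of these shifts was not tested where the alternative is not simply a stricter limit or fewer libraries. Depth limits the CON side, with 2 to 22 exonic sites per member and library.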
